A study of Mus musculus with 15 samples.

Results

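Gene expression in mouse biliary epithelial cells at 24 h with 4-OH tamoxifen was measured by RNA-seq and compared with that at 24 h with ethanol, the control agent. The comparison holds 8 of the 15 libraries analysed here, 4 labelled as ethanol controls and 4 as tamoxifen at 24 h, and the other 7 were taken at 12 h. Members were chosen by the time point in their titles, and all genes with a p-value in the 24 h comparison were described. All samples came from an established cell line made from bile ducts of adult C57BL/6 mice, with the genotype ITR-CreERT2;Klf5flox/flox. CreERT2 is a recombinase that 4-OH tamoxifen activates, and the floxed Klf5 alleles are its target.

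The controls carry the same alleles, so tamoxifen itself, recombinase activity and loss of Klf5 cannot be told apart in this contrast. The data come from 1 line. Nothing in the labels says that the 4 libraries of a group were grown apart, so a p-value here measures the spread between libraries, part or all of which could be technical. The abbreviation ITR, and with it what drives the recombinase, is not explained in the labels. The series title names 3D structures grown in vitro and its design text names structures in vivo, and which of them was sampled was not settled here.

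Klf5 is a zinc finger transcription factor of the Krüppel-like family, whose members bind GC-rich and CACCC-type sequences in promoters and enhancers. It is active in many proliferating epithelia, including those of the gut, the skin and the urinary tract. Biliary epithelial cells, or cholangiocytes, line the bile ducts, seal them with tight junctions and modify bile by moving ions, water and bile acids.

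The deposited values were 1 comparison per time, with a mean normalised read count, a log2 fold change and its standard error for each gene, and no value per library. The mean and the fold of a gene together give the level implied for each group of 4 libraries, and levels below are such pairs, in normalised read counts that are not scaled to transcript length. Percentages of the ethanol level and folds are given with 95% intervals from the standard error. The means summed to 11.8 M reads per library over 24421 gene symbols, of which 8602 had a mean of 0. A p-value was present for 15819 genes and an adjusted p for 11648, all with a mean of at least 7.34. Of 14 biliary markers 10 had a mean of at least 50, and Krt18, a keratin of simple epithelia, had the highest at 21895 counts. Of 9 hepatocyte markers 5 had a mean of at least 50, with Apob at 27450 counts and Cyp2e1 and Cps1 at 0. The summed implied level of the hepatocyte markers was 33995 counts in ethanol and 41549 in tamoxifen, and that of the biliary markers was 63387 and 69669. These sums follow a few abundant genes. Apob went from 24450.5 to 30449 counts, and in the biliary panel Spp1 went from 12413 to 16400 and Krt18 from 20754 to 23037, neither called. Of the 9 hepatocyte markers 2 rose and 0 fell by the test, and of the 14 biliary markers 3 rose and 1 fell. Short panels of defining markers were read for other cell types, without Msln and Krt19, which biliary cells also express, and without Cd14. In the panels for fibroblasts, endothelium and mesothelium no gene had a mean above 10.8, and Col1a2, Col3a1, Pdgfra, Dcn, Lum, Cdh5, Emcn, Stab2 and Upk1b were at 0. In the immune panel Cd68, which epithelial lysosomes also hold, had the highest mean at 76.1, with Cd3e and Adgre1 at 0. Cd14, left out of this panel, had a higher mean, 389, and was called as a fall. The library kit does not mark strand, and 28 named genes share over 10% of their exon bases with a gene on the other strand, among them Ctgf, Arhgef26, Glipr1, Card14, Adamts9, Pla2g7, Gadd45a, Cebpb, Csf2, Fgfr3, St3gal4, Serpinb6a, G6pdx and Atp6v0b. Reads of such pairs cannot be told apart, and members of families of near-identical genes (Sprr2, Ly6, Akr1c, Ugt2b, ribosomal proteins) may have exchanged reads. In bulk samples, fewer cells of a type and less RNA per cell cannot be told apart.

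At 24 h, 1447 genes, or 12.4% of those with an adjusted p, were called at an adjusted p under 0.05. Of them 687 rose, 5.9% of the genes tested, and 760 fell, 6.52%. Most changes were small: 337 rises and 432 falls were under 1.25-fold, the median rise was to 1.25-fold and the median fall was to 82.3% of the ethanol level. Changes of at least 2-fold were more often falls, with 67 genes against 27. At 1.5-fold the numbers were 150 and 127.

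The balance of rises and falls differed with expression level. Among the most abundant 1165 genes, with means of 2295 to 56561 counts, 16.7% fell and 8.84% rose. Between means of 180 and 300 counts, 8.42% rose and 3.44% fell. Precision differed with level too, since the median standard error of the log2 fold dropped from 0.39 in the least abundant 1165 genes to 0.05 in the most abundant. Small changes were therefore called mainly in abundant genes, and the median size of a called change was 2.66-fold in the least abundant 1165 genes and 1.16-fold in the most abundant.

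**Figure D1:**
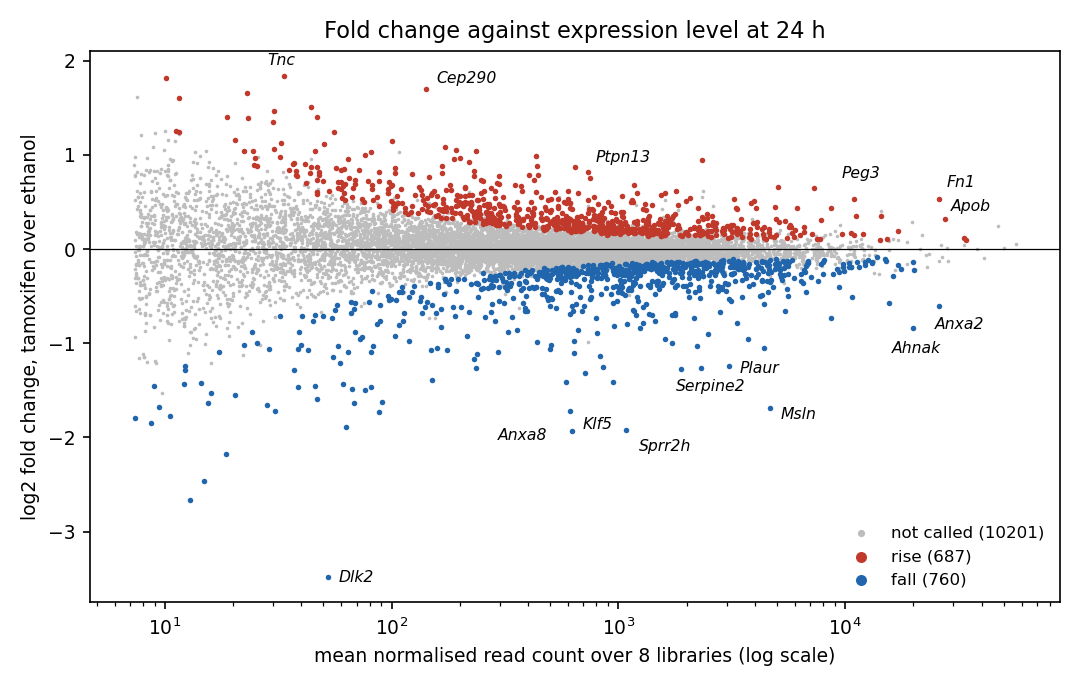
Log2 fold change of tamoxifen over ethanol (vertical) against the mean normalised read count over 8 libraries (horizontal, log scale) for the 11648 genes with an adjusted p, 1 point per gene. The 687 rises (red) and 760 falls (blue) spread to larger folds at low means, and falls reach further from 0 than rises at means above 100 counts.

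Klf5, the targeted gene, lies on chromosome 14 (chr14:99298691-99315036, plus strand, GRCm38). Its level went from 938 to 285 normalised counts, so that 30.4% (27.4 to 33.8) of the ethanol level remained. Percentages below are likewise of the ethanol level, with the 95% interval in brackets. The fall had an adjusted p of 9.5e-107 in the authors' deposited table, and the sources used here do not state which agent is the numerator. Folds were read as tamoxifen over ethanol because Klf5, the gene to be deleted, is then lower with tamoxifen, so the fall of Klf5 is not independent of this reading and every rise and fall here rests on it. Of the Krüppel-like and Sp factors, 5 of 17 fell and 0 rose, with a median log2 fold of -0.08 against 0.00 over all genes with an adjusted p. Klf5 itself is counted in this list and among its falls. Klf6, an abundant early response factor, fell from 10685 to 8104 normalised counts, to 75.8% (67.4 to 85.4). Klf3, a repressor of the family, fell to 74.7% (69.5 to 80.3). Klf13 and Klf9 fell less, to 88.8% and 90.2%. Of the annotated genes within 3 Mb of Klf5 with an adjusted p, 1 other fell: Lmo7, a junction-associated LIM domain gene 2415 kb away, with a log2 fold of -0.70 ± 0.07 (standard error) in the authors' deposited table. The Klf5 neighbours Pibf1, Klf12, Dis3, Mzt1 and Bora did not pass the test; Lmo7 and these neighbours were looked up by position after the values were known.

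Besides Klf5, the falls with the largest test scores included genes of the cell surface and membrane cortex, enzymes such as Ugt2b34 and Vnn1, and Plaur, a receptor of extracellular proteolysis. Msln (chr17:25748613-25754378, minus strand), which encodes the surface glycoprotein mesothelin, had the largest absolute score of all genes. It is also known from mesothelium, and in the panel of 5 other mesothelial markers Lrrn4 had the highest mean at 0.613. Msln fell from 7117 to 2207 normalised counts, to 31.0% (28.6 to 33.6). Anxa8 (chr14:34085981-34100571, plus strand), a calcium-dependent membrane-binding annexin, fell from 995 to 260.1 normalised counts, to 26.2% (23.1 to 29.6). Sprr2h, one of the small proline-rich proteins of cornified envelopes, fell to 26.4% (22.8 to 30.7).

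Ahnak (chr19:8989284-9076914, plus strand) encodes a giant scaffold at the inner face of the plasma membrane. It fell from 25479.9 to 14221 normalised counts, to 55.8% (52.4 to 59.4). The genes of the proteins that form a complex with it moved the same way: Anxa2 fell from 31292 to 20535 normalised counts, and S100a10 fell from 4244 to 2459 normalised counts. Their remaining levels were 65.6% (62.4 to 69.0) and 57.9% (53.3 to 63.0). S100a6, a small calcium-binding protein, fell to 60.3% (55.4 to 65.7).

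Plaur encodes the urokinase receptor, which gathers plasmin formation at the cell surface. It fell from 4341 to 1832 normalised counts, to 42.2% (37.7 to 47.2). Serpine2 (chr1:79794197-79861180, minus strand), an inhibitor of thrombin and urokinase, fell from 3268 to 1358 normalised counts, to 41.6% (36.6 to 47.2). Mmp13, an interstitial collagenase, fell to 40.3% (34.3 to 47.3).

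Ugt2b34, a glucuronosyltransferase with a larger score than Anxa2 and Plaur, fell to 41.5% (37.4 to 45.9), and Vnn1, the pantetheinase that releases vitamin B5, fell to 37.7% (33.6 to 42.3). Rdh10, which oxidises retinol on the way to retinoic acid, fell to 37.6% (32.7 to 43.2). The sulphate transporter Slc26a2 fell to 51.7%. Palmd, Gpr137b and Arhgef26 fell to 61.8%, 58.0% and 46.5%. Cdh6, a cadherin, and Tinagl1, a basement membrane protein, fell to 68.5% and 69.3%, and Rasgef1b, a Ras-family exchange factor, to 41.6%.

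**Figure D2:**
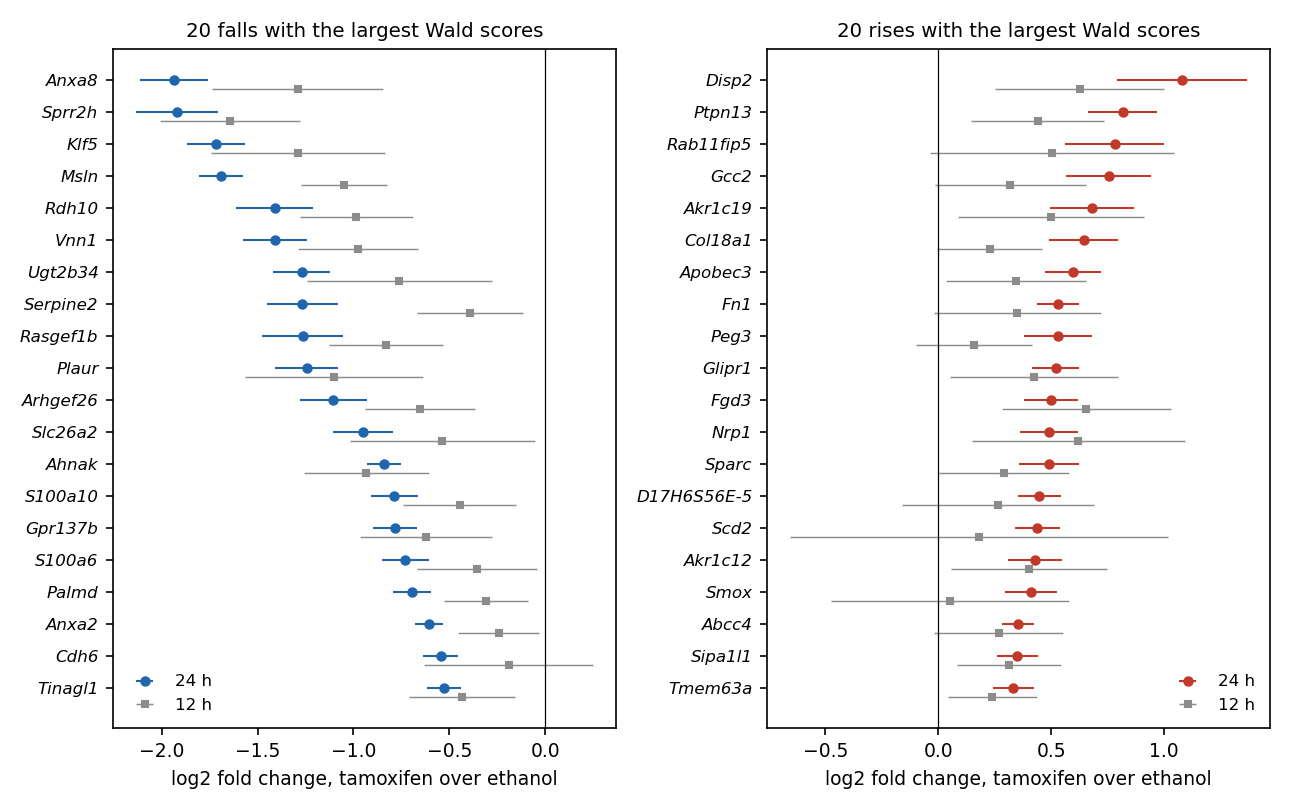
Log2 fold change of tamoxifen over ethanol (horizontal) for the 20 falls and the 20 rises with the largest Wald scores at 24 h (circles), with the 12 h value beside each (grey squares); bars are 95% intervals. The falls reach -1.94 (Anxa8), the rises reach 1.08 (Disp2), and the intervals at 12 h are wider.

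Promoter sequence is shown for 4 of the deep falls, because 3 of them carry the same short element and 3 carry matches to a GC-rich consensus of Krüppel-like factors. The windows hold the 250 bases before the annotated start in RefSeq (GRCm38.p6, plus strand, 5′ to 3′) and were chosen after the folds were known. Capitals mark matches on either strand to CCNCNCCC, a Krüppel-like factor consensus, and to TGANTCA, the AP-1 consensus; matches of CCNCNCCC may overlap each other and the GC box GGGCGG.
Anxa8, chr14:34085729-34085978: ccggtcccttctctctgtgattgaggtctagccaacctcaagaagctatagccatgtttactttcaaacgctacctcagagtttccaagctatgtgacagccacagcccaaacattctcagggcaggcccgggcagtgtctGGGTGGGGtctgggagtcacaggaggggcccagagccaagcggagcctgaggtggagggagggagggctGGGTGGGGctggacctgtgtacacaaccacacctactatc
Plaur, chr7:24462233-24462482: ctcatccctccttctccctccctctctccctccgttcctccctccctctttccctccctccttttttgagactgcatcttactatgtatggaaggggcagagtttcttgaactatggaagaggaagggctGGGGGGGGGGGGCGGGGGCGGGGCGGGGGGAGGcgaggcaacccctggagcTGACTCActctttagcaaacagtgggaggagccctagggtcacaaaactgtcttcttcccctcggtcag
Mmp13, chr9:7272264-7272513: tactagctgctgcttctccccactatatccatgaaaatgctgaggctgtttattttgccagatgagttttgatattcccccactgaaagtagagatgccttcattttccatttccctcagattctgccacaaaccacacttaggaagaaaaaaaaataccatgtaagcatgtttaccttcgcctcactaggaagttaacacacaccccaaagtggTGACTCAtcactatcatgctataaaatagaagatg
Sprr2h, chr3:92385435-92385684: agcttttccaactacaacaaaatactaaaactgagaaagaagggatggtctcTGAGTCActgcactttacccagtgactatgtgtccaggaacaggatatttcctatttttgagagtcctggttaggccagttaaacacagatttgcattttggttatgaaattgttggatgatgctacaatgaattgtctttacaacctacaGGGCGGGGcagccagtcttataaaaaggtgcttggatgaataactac
The stretch before Anxa8 held 2 matches to CCNCNCCC, the one before Sprr2h held 1 and the one before Plaur held 11, which overlap in a single G-rich run. TGANTCA lay 62 bases before the start of Plaur, 28 before that of Mmp13 and 191 before that of Sprr2h. Mmp13 and Sprr2h also had a TATAAA, 10 and 23 bases before the start. The window of Dlk2, the deepest fall by fold, held no match to these motifs.

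Over 8918 genes with an adjusted p and a RefSeq window of 300 bases (76.6%), motif shares were counted by call. TGANTCA was present in 8.10% of the windows of falls, 6.69% of those of rises and 4.35% of those not called, against 7.93% of all 27025 windows. Among changes of at least 2-fold it was present in 9 of 41 falls and 4 of 17 rises. CCNCNCCC was present in 74.8% of falls, 72.8% of rises, 69.5% of genes not called and 49.1% of all windows, and in 63.4% of the falls of at least 2-fold. GGGCGG was present in 68.1%, 67.1% and 66.9% of falls, rises and genes not called, in 46.3% of the falls of at least 2-fold and in 35.9% of all windows. TATAAA was present in 10.4%, 6.10% and 6.25%, in 26.8% of the falls of at least 2-fold and in 14.2% of all windows. These shares describe letters and were not tested, and median GC was 56.7% in the windows of falls of at least 2-fold and 61.3% in those of genes not called.

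The rises with the largest scores were of moderate size. Fn1 (chr1:71585520-71653200, minus strand), which encodes the matrix protein fibronectin, led them. It rose from 21159 to 30576 normalised counts, or 1.45-fold (1.36 to 1.54). Ptpn13, a large protein tyrosine phosphatase of the cell cortex, rose from 529 to 933 normalised counts, or 1.76-fold (1.59 to 1.96). Col18a1, a basement membrane collagen, rose 1.56-fold (1.41 to 1.74), and Sparc, a collagen-binding matrix protein, rose 1.40-fold (1.28 to 1.54).

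Transport, trafficking and lipid genes followed among these 20 rises. Abcc4, an efflux pump for organic anions and cyclic nucleotides, rose from 9773 to 12479 normalised counts, or 1.28-fold (1.21 to 1.34). Scd2, a stearoyl-CoA desaturase, rose 1.36-fold (1.26 to 1.45). Gcc2, a tether of the trans-Golgi, rose 1.69-fold (1.48 to 1.92), and Rab11fip5, a partner of recycling endosomes, rose 1.72-fold. The steroid-converting aldo-keto reductases Akr1c19 and Akr1c12 rose 1.60-fold and 1.35-fold, in a family of close paralogs.

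Signalling genes in the same set included Nrp1, a co-receptor for semaphorins and VEGF, which rose 1.41-fold (1.29 to 1.54). Disp2 rose from 110.0 to 233 normalised counts, or 2.11-fold (1.73 to 2.58), the largest fold of the 20. Sipa1l1 and Fgd3, regulators of small GTPases, rose 1.27-fold and 1.41-fold. Apobec3, an antiviral cytidine deaminase, rose 1.51-fold (1.39 to 1.65), Glipr1 1.43-fold, Tmem63a 1.26-fold and Smox, spermine oxidase, 1.33-fold. Peg3, an imprinted zinc finger gene, rose from 8949 to 12922 normalised counts, or 1.44-fold (1.30 to 1.60).

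In read counts, the falls together took 311847 normalised reads per library (2.63% of the sum of means) and the rises added 180204 (1.52%). The 10 largest losses held 17.0% of the loss and the 10 largest gains 21.4% of the gain, so most of the change was spread over the other called genes. Ahnak, Anxa2, Anxa3, Msln and S100a6 lost the most reads, with changes of -11259, -10757, -6063, -4909.7 and -4272 counts. They were followed by Epha2, an ephrin receptor that fell to 70.3% (64.8 to 76.3), Ezr, the membrane-actin linker ezrin, which fell to 82.1% (76.1 to 88.5), and Ctgf, a matricellular protein, which fell to 48.4% (42.3 to 55.3). The gains were led by Fn1 (9417 counts), Apob (5998), the apolipoprotein of liver-derived lipoproteins, and Peg3 (3974). Apob rose 1.25-fold (1.10 to 1.40), Itga3, the integrin chain that binds laminin-332, rose 1.35-fold (1.22 to 1.49), and Hspa5, the main chaperone of the endoplasmic reticulum, rose 1.08-fold (1.03 to 1.14). Gc, the vitamin D-binding protein, rose 1.58-fold (1.19 to 2.10), with a standard error 4.38 times that of genes of similar mean.

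By fold alone, Dlk2, a Notch-related membrane protein, fell deepest of the genes whose mean reached 50 counts, from 96.0 to 8.56 normalised counts, to 8.93% (5.79 to 13.8). Itgb6, the integrin chain that activates latent TGF-beta, fell to 26.9% (17.1 to 42.4). Adgrl3, an adhesion receptor, fell to 38.1% (31.2 to 46.4), Ptprt, a receptor phosphatase, to 35.7%, and the potassium channel Kcnu1 to 36.2%. Hecw1, a ubiquitin ligase, fell to 37.2%.

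Among the largest rises by fold, several had standard errors well above those of genes of similar mean. Cep290, a protein of the ciliary transition zone, rose 3.24-fold (1.67 to 6.30), with a standard error 3.75 times the usual one. For Stra6, Ccdc88a, Ly6a and Ly6c1 the ratio was 2.83, 3.31, 2.89 and 2.58, and their rises were 1.96-fold, 1.85-fold, 1.83-fold and 2.21-fold. The call of Ly6c1 is lost when p is adjusted over all genes with a p. Those with ratios under 1.5 included Pla2g7, the platelet-activating factor hydrolase, at 2.36-fold (1.74 to 3.21), Smtnl2 at 1.84-fold (1.51 to 2.25), Tmem171 at 1.90-fold (1.54 to 2.34) and Lefty1, a Nodal antagonist, at 1.82-fold (1.36 to 2.44). Lgr6, a receptor for R-spondins, rose 1.81-fold (1.30 to 2.52), and Uba7, which activates the ubiquitin-like ISG15, rose 1.94-fold (1.40 to 2.69). At means under 50 counts, Tnc, the matrix protein tenascin-C, rose from 14.6 to 52.3 normalised counts, or 3.58-fold (2.21 to 5.80). Gzme rose 3.53-fold (1.64 to 7.64), and the interferon-inducible genes Ifi203 and Slfn8 rose 3.15-fold and 3.04-fold. The low-mean falls were led by Prr32 at 15.7% (7.63 to 32.4) and by Card14, a scaffold of NF-kB signalling in epithelia, at 18.2% (9.46 to 34.9).

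Gene lists by function are described by the number of members that rose and fell among those with an adjusted p, to be read against 5.9% and 6.52% of all genes. Across 66 lists, the share of members called ranged widely, and all calls went down in 15 lists and up in 7. Some of these lists, such as DNA replication and the estrogen receptor list, had only 1 called gene, so that a single direction was certain. Some genes are in more than 1 list, and agreement in direction was not tested.

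**Figure D3:**
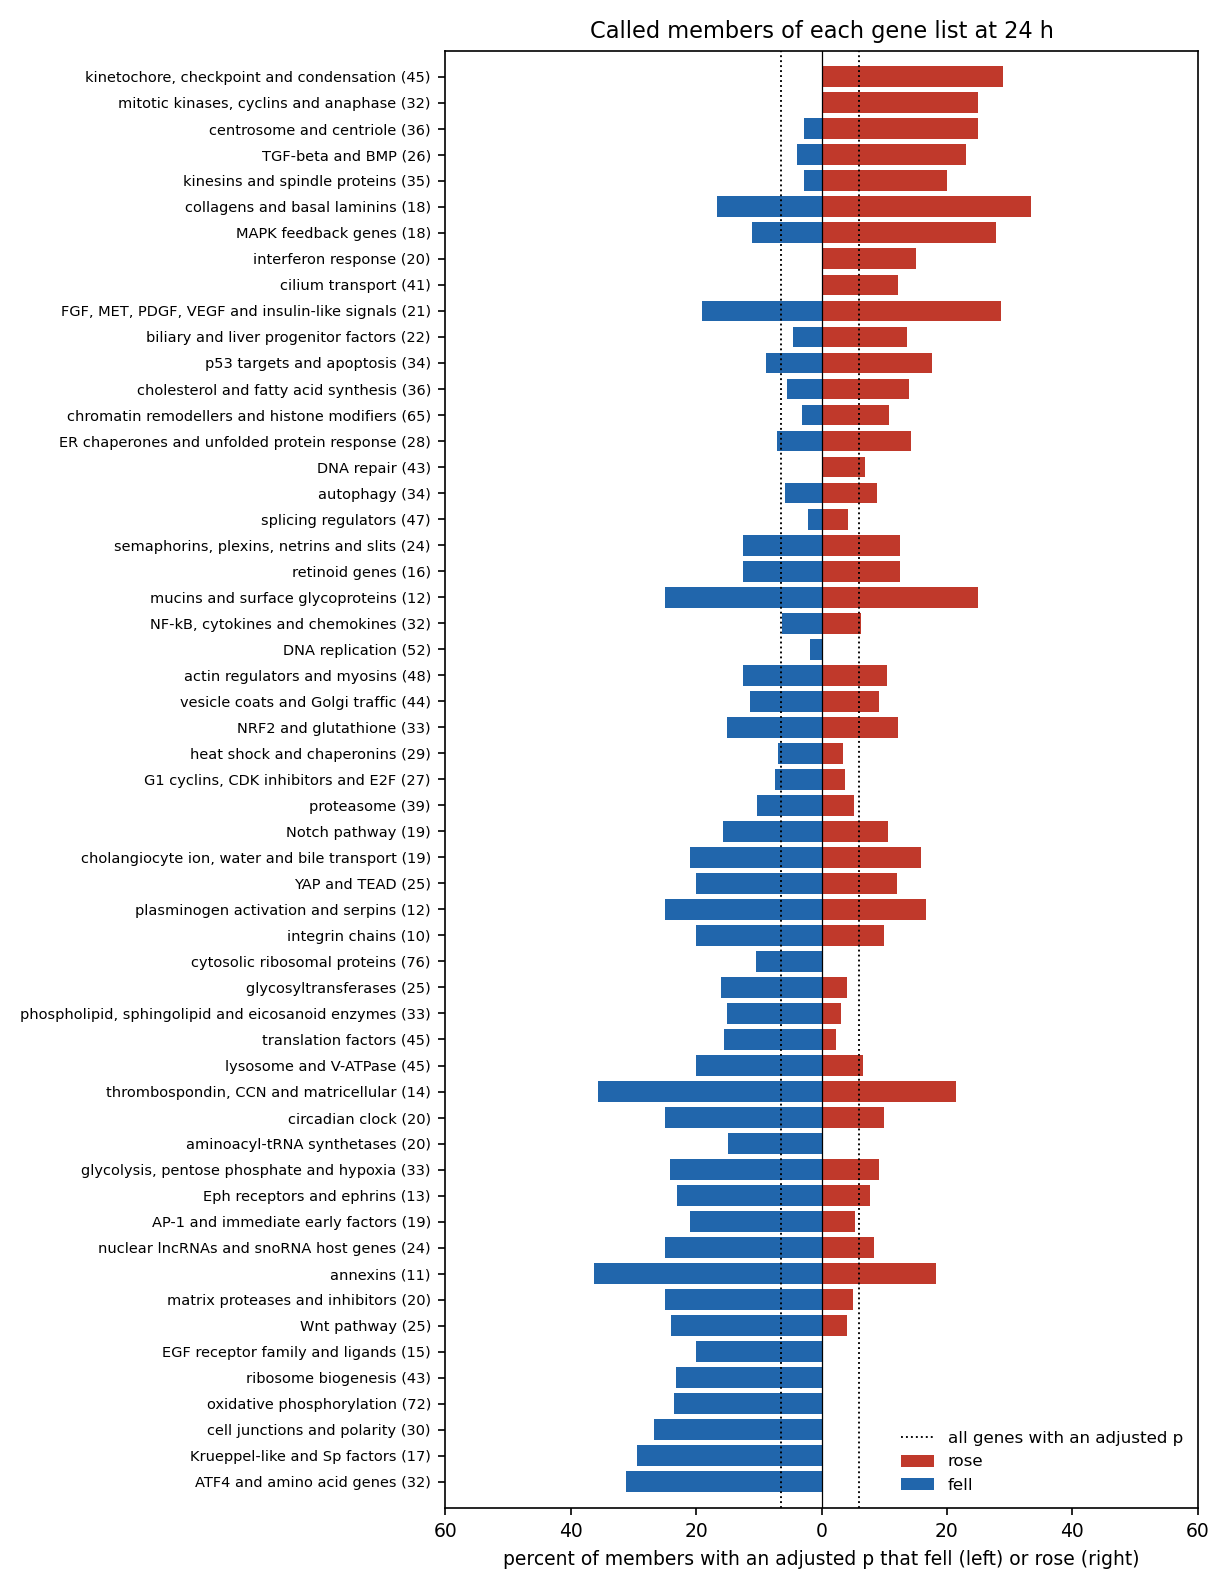
Percent of the members with an adjusted p that fell (blue, left) or rose (red, right) at 24 h, for each gene list with at least 10 such members (number in brackets). Dotted lines give the 5.9% of rises and 6.52% of falls among all genes; mitotic and centrosome lists lie at the top and ATF4, Krüppel-like, junction and oxidative phosphorylation lists at the bottom.

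Calls among S100, annexin and keratin genes of the epithelial surface were mostly falls. Of the S100 proteins and Ahnak, 6 of 8 fell and 0 rose, with a median log2 fold of -0.55. S100a16 and S100a11 fell to 79.9% and 90.2%, beside the larger falls of S100a10 and S100a6. Of the annexins, 2 of 11 rose and 4 fell. Anxa3 fell from 18629.7 to 12567 normalised counts, Anxa11 fell to 80.6% (72.5 to 89.6), and Anxa6 rose 1.41-fold (1.16 to 1.71), so the family moved in both directions. Of the keratins, 3 of 7 fell and 0 rose. Krt19, a keratin of bile duct cells, fell from 7751 to 5648 normalised counts, to 72.9% (64.3 to 82.6). Krt20, a keratin of gut and urinary epithelium, fell to 76.6% (71.0 to 82.5), and Krt80, at a mean under 50 counts, to 30.3% (18.7 to 49.2).

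Of the mucins and surface glycoproteins, 3 of 12 rose and 3 fell. Tspan8 and Cd63, both tetraspanins, fell to 66.5% (59.9 to 74.0) and 86.0% (79.9 to 92.6), while Ly6e, a GPI-anchored surface protein, rose 1.28-fold (1.16 to 1.40). Of the glycosyltransferases, 1 of 25 rose and 4 fell. Mgat3, which adds the bisecting sugar to N-glycans, fell to 47.0% (40.0 to 55.2), and Gcnt3, a mucin core enzyme, to 46.9% (36.2 to 60.8). St3gal4, a sialyltransferase, fell to 76.0%, and Fut8, the core fucosyltransferase, rose 1.31-fold.

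Genes for attachment to laminin and for the basement membrane moved in both directions. Of the laminin-332 and hemidesmosome genes, 3 of 7 fell and 0 rose. Plec, the hemidesmosome linker plectin, fell from 8444 to 6700.2 normalised counts, to 79.3% (74.5 to 84.5), and Lamb3 fell to 42.1% (29.6 to 59.9), with a standard error 4.00 times that of genes of similar mean. Of the collagens and basal laminins, 6 of 18 rose and 3 fell, with a median log2 fold of 0.22. The rises beside Fn1, Col18a1 and Sparc included the type IV collagen gene Col4a1 at 1.24-fold (1.17 to 1.33), and Lamb2 fell to 79.4% (74.4 to 84.8). Of 10 integrin chains, Itga3 rose, Itgb6 and Itga7 fell, and 7 did not pass the test. Itga7, at a mean under 50 counts, fell to 54.3% (39.4 to 74.7).

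Matricellular and proteolytic genes split. Of the thrombospondin, CCN and related genes, 3 of 14 rose and 5 fell. Thbs1, an activator of latent TGF-beta, rose from 154 to 316 normalised counts, or 2.06-fold (1.64 to 2.57), and Wisp1, a CCN protein, rose 1.44-fold (1.28 to 1.63). Vcan, the large proteoglycan versican, fell from 1386 to 799.9 normalised counts, to 57.7% (49.4 to 67.4). Of the matrix proteases and their inhibitors, 1 of 20 rose and 5 fell: Timp2 fell to 74.6% (68.4 to 81.2), Mmp14 to 90.6% and Adam9 to 88.4%, and Adamts9 rose 2.01-fold (1.51 to 2.65). Of the plasminogen activation and serpin genes, 2 of 12 rose and 3 fell. Thbd, the thrombin receptor thrombomodulin, rose 1.44-fold (1.28 to 1.62), opposite to Plaur, Serpine2 and Serpinb6a, which fell to 81.4%.

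Calls among junction genes were falls of small size, and most members were not called. Of the cell junction and polarity genes, 8 of 30 fell and 0 rose, and the median log2 fold of the list was -0.01. Cgnl1, a tight junction scaffold, fell from 4773 to 3795 normalised counts, to 79.5% (75.2 to 84.0). Tjp1, the scaffold ZO-1, fell to 82.5% (77.6 to 87.8), and Ctnna1, alpha-catenin, to 89.9% (86.2 to 93.7). Among 7 claudins, Cldn2, which forms cation and water pores, fell to 79.2% (72.7 to 86.3), and Cldn4 rose 2.36-fold (1.30 to 4.28) at a mean under 50 counts, a call that is lost when p is adjusted over all genes with a p. Of 48 actin regulators and myosins 5 rose and 6 fell: Cobl, an actin nucleator, fell to 32.2% (24.4 to 42.5) and Spire1, another nucleator, to 80.3% (73.9 to 87.2), while the myosin Myo6 rose 1.28-fold (1.18 to 1.39).

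Calls among genes of receptor tyrosine kinases, their ligands and related proteins were mostly falls in the EGF and Eph lists. They went in both directions in the list of FGF, PDGF and other growth factor genes. Of the EGF receptor family and its ligands, 3 of 15 fell and 0 rose. Egfr fell to 80.3% (73.8 to 87.4), and the ligands Ereg and Btc fell to 74.2% (64.6 to 85.1) and 73.8% (63.6 to 85.7). Both ligands had standard errors over 1.5 times those of genes of similar mean. Of the Eph receptors and ephrins, 1 of 13 rose and 3 fell, with Epha5 at 54.4% (45.9 to 64.6) and Epha4 at 83.5% (79.3 to 87.9) beside Epha2. Of the FGF, MET, PDGF, VEGF and insulin-like genes, 6 of 21 rose and 4 fell. Pdgfc fell from 1441 to 911 normalised counts, to 63.2% (57.6 to 69.5), and Pdgfb, a related ligand, rose 1.45-fold (1.23 to 1.70). Fgfr3 fell to 52.6% (42.8 to 64.7), Igf1r, the IGF receptor, rose 1.28-fold (1.18 to 1.39) and the lymphangiogenic ligand Vegfc rose 1.38-fold (1.20 to 1.60).

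Downstream of these receptors, of the MAPK feedback genes 5 of 18 rose and 2 fell. Dusp1, a phosphatase of stress kinases, fell from 2199.5 to 1356 normalised counts, to 61.6% (55.5 to 68.4), whereas the ETS factors Etv5 and Etv4, which ERK signalling induces, rose 1.44-fold (1.23 to 1.67) and 1.29-fold (1.09 to 1.51). Of the AP-1 and immediate early factors, 1 of 19 rose and 4 fell, with a median log2 fold of -0.13. Ier5 fell to 75.7% (69.9 to 81.9), Mafk to 78.6% (73.0 to 84.6), Atf3 to 79.3% (70.8 to 88.9) and Fosb to 61.5% (48.2 to 78.4), while Fosl2 rose 1.18-fold (1.07 to 1.31). Without genes of a standard error over 1.5 times that of genes of similar mean, 2 falls of this list were called in place of 4.

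Several Wnt ligand genes fell. Of the Wnt pathway genes, 1 of 25 rose and 6 fell. Wnt4 fell from 359.7 to 212 normalised counts, to 58.8% (50.7 to 68.2), Wnt10a to 56.4% (45.5 to 70.1), Wnt7b to 76.5% (68.8 to 84.9), Wnt9a to 69.2% (55.4 to 86.5) and Wnt7a, at a mean under 50 counts, to 28.9% (12.4 to 67.3). The receptor Fzd7 fell to 81.1% (72.6 to 90.5). Of the TGF-beta and BMP genes, 6 of 26 rose and 1 fell, with a median log2 fold of 0.09. The ligand Tgfb2, at a mean under 50 counts, rose 1.87-fold (1.35 to 2.61), and the transducer Smad3 rose 1.16-fold (1.08 to 1.25). Bmp1, a procollagen protease, rose 1.21-fold (1.08 to 1.35), and the ligand Bmp4 fell to 76.0% (67.5 to 85.6).

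Of the Notch pathway genes, 2 of 19 rose and 3 fell. The target Hey1, at a mean under 50 counts, fell to 32.3% (18.8 to 55.3), and the receptor Notch2 to 89.7% (84.5 to 95.3). The co-activator Maml2 and the DNA-binding partner Rbpj rose 1.36-fold (1.20 to 1.54) and 1.18-fold (1.06 to 1.30). At a mean of at least 100 counts, the falls of this list went from 3 to 1. Of the YAP and TEAD genes, 3 of 25 rose and 5 fell: Ajuba fell to 75.6% (70.0 to 81.7) beside Ctgf, and Tead1, the DNA-binding partner of YAP, rose 1.16-fold (1.06 to 1.27). Of the semaphorin and plexin genes, 3 of 24 rose and 3 fell. Sema3c, a secreted ligand, fell from 1597 to 895 normalised counts, to 56.1% (48.7 to 64.5), and of the neuropilins that bind such ligands Nrp2 fell to 64.4% (53.4 to 77.7) while Nrp1 rose.

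Of the NF-kB, cytokine and chemokine genes, 2 of 32 rose and 2 fell, a share near that of all genes. Csf1, the growth factor of macrophages, rose from 2655 to 3832 normalised counts, or 1.44-fold (1.30 to 1.61), and Il33, an alarmin, fell from 70.4 to 23.4 normalised counts, to 33.2% (21.8 to 50.5). Of the interferon response genes, 3 of 20 rose and 0 fell, with Irf1 at 1.37-fold (1.24 to 1.51). Cd14, the lipopolysaccharide co-receptor and the 1 called gene on the immune marker list, fell to 63.4% (56.5 to 71.0). The immune panel, which leaves Cd14 out, had 3 of 7 genes at 0 and Cd68, not called, at a mean of 76.1.

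Some transcription factors of biliary identity rose by small amounts. Of the biliary and liver progenitor factors, 3 of 22 rose and 1 fell. Onecut2 rose from 2344 to 2866 normalised counts, or 1.22-fold (1.12 to 1.33), and Hhex rose 1.17-fold (1.07 to 1.29). Esrp2, an epithelial splicing factor, fell to 81.3% (74.0 to 89.3). Of the genes for ion, water and bile transport, 3 of 19 rose and 4 fell. Slc12a2, the basolateral chloride loader, fell from 4265 to 3245 normalised counts, to 76.1% (71.0 to 81.6). Ano1, a calcium-gated chloride channel, fell to 76.9% (68.5 to 86.2) and Abcg2, an efflux pump, to 62.8% (50.2 to 78.6). Car2, a carbonic anhydrase at a mean under 50 counts, fell to 36.4% (25.4 to 52.1). Of 8 hepatocyte-list genes with an adjusted p, Apob and Trf, transferrin, rose, the latter 1.23-fold (1.12 to 1.36), and 6 did not pass the test. Both rises were among genes of large standard error, and without such genes none of the hepatocyte list was called.

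Genes that act in mitosis were called often, and all but 1 of those calls were rises, while 1 of 52 DNA replication genes was called. Of the kinetochore, checkpoint and condensation genes, 13 of 45 rose and 0 fell, with a median log2 fold of 0.17. Cenpf, a kinetochore protein, rose from 125 to 259 normalised counts, or 2.07-fold (1.57 to 2.71), Casc5, the scaffold KNL1, rose 1.78-fold (1.42 to 2.22), and Mki67, the Ki-67 antigen, rose 1.52-fold (1.27 to 1.83). Cenpe, a kinetochore motor, rose 1.99-fold (1.40 to 2.82), with a standard error 3.18 times that of genes of similar mean. Of the mitotic kinases, cyclins and anaphase genes, 8 of 32 rose and 0 fell, and the median was 0.22. Ccnb1 and Ccnb2, the mitotic cyclins, rose 1.27-fold (1.12 to 1.46) and 1.48-fold (1.16 to 1.89), Plk1 rose 1.26-fold (1.11 to 1.44) and Cdc20 rose 1.24-fold (1.10 to 1.39). Of the kinesins and spindle proteins, 7 of 35 rose and 1 fell, with Kif20b at 1.71-fold (1.38 to 2.12) and Tpx2 at 1.32-fold (1.18 to 1.47).

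Of the DNA replication genes, by contrast, 1 of 52 fell and 0 rose, with a median of -0.03. The fall was that of Orc6, an origin recognition subunit, to 84.7% (76.1 to 94.3). Of the G1 cyclins, CDK inhibitors and E2F genes, 1 of 27 rose and 2 fell: E2f2 fell from 95.9 to 49.4 normalised counts, to 51.6% (39.8 to 66.8). Whether the mitotic and replication lists differ was not tested. Without genes of a standard error over 1.5 times that of genes of similar mean, 8 kinetochore and 5 mitotic kinase genes were called as rises. With p adjusted over all genes with a p, the mitotic kinase rises also went from 8 to 5. Of the DNA repair genes, 3 of 43 rose and 0 fell, led by Brca2 at 1.58-fold (1.31 to 1.89).

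Calls among centrosome and cilium genes were mostly rises, and most members were not called. Of the centrosome and centriole genes, 9 of 36 rose and 1 fell. Pcm1, the scaffold of centriolar satellites, rose from 1196 to 1501 normalised counts, or 1.26-fold (1.14 to 1.39), and Cep112 rose 1.63-fold (1.27 to 2.10). Of the genes of ciliary transport, 5 of 41 rose and 0 fell, a called share of 12.2% beside 12.4% of all genes, with Ift74 and Ift140, parts of the intraflagellar transport trains, at 1.41-fold (1.16 to 1.71) and 1.31-fold (1.11 to 1.54), and Pkhd1, the polycystic disease gene of the cholangiocyte cilium, at 1.35-fold (1.11 to 1.63).

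Of the p53 target and apoptosis genes, 6 of 34 rose and 3 fell. Bmf, a pro-apoptotic BH3-only protein, rose 1.35-fold and the anti-apoptotic Mcl1 fell to 87.7% (82.1 to 93.7), while Gadd45a, a stress-induced growth arrest gene, fell to 79.5% (73.0 to 86.5). Of the chromatin genes, 7 of 65 rose and 2 fell, a share near that of all genes, with Atrx at 1.46-fold (1.26 to 1.69). Of the splicing regulators, 2 of 47 rose and 1 fell.

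Period and cryptochrome genes of the clock fell, and the REV-ERB genes rose. Of the circadian clock genes, 2 of 20 rose and 5 fell. Per2 fell from 536 to 385 normalised counts, to 71.8% (63.8 to 80.9), Cry1 fell to 78.0% (69.9 to 87.1) and Per1 to 84.5% (76.2 to 93.8), while Nr1d1 and Nr1d2, which encode the REV-ERB receptors, rose 1.54-fold (1.28 to 1.87) and 1.20-fold (1.08 to 1.33). Of the nuclear long noncoding and snoRNA host genes, 2 of 24 rose and 6 fell, with Snhg12 and Snhg1 at 75.2% (65.3 to 86.6) and 77.5% (67.7 to 88.7) and the imprinted antisense transcript Kcnq1ot1 at 1.56-fold (1.29 to 1.89).

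Calls among genes for making ribosomes and proteins were nearly all small falls, and most members were not called. Of the ribosome biogenesis genes, 10 of 43 fell and 0 rose, with a median log2 fold of -0.08. Nop56, a snoRNP protein, fell from 3749 to 3329 normalised counts, to 88.8% (84.3 to 93.6), and Ddx21, a nucleolar helicase, to 91.4% (87.2 to 95.7). Of the cytosolic ribosomal proteins, 8 of 76 fell and 0 rose, with a median of -0.12, and all 8 falls are lost when folds are centred on genes of similar transcript length. Rplp1 fell from 18952 to 16338 normalised counts, to 86.2% (79.5 to 93.5), and Rps2 to 87.7% (81.7 to 94.1); both have near-identical copies in the genome, so their counts are uncertain. Of the translation factors, 1 of 45 rose and 7 fell, with Eif1 at 85.2% (77.7 to 93.4) and Eif5a at 92.4% (88.4 to 96.6).

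Of the ATF4 and amino acid genes, 10 of 32 fell and 0 rose, the highest share of falls among the lists of 30 or more, and the median was -0.11. Phgdh, the first enzyme of serine synthesis, fell from 7335 to 5725 normalised counts, to 78.1% (73.4 to 83.0), and Mthfd2, a mitochondrial folate enzyme, to 90.5% (85.8 to 95.4). The stress factors Ddit3 and Cebpb fell to 84.5% (78.0 to 91.6) and 81.3% (73.1 to 90.5). Of 20 aminoacyl-tRNA synthetases, Gars, Nars and Farsb fell, to 91.1%, 91.3% and 90.5%.

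Of the oxidative phosphorylation genes, 17 of 72 fell and 0 rose, with a median log2 fold of -0.13. When folds are centred on genes of similar transcript length 2 falls were called in the list in place of 17, and Atp5k, Ndufb4 and Cox8a lose their calls. Atp5b, a catalytic subunit of ATP synthase, fell from 20947 to 19056 normalised counts, to 91.0% (86.8 to 95.4). Atp5k and Ndufb4, small subunits of ATP synthase and complex I, fell to 75.1% (63.9 to 88.2) and 77.9% (67.4 to 90.0), and Cox8a, of cytochrome c oxidase, to 87.5% (80.6 to 95.1). None of the mitochondrially encoded genes was matched in the table.

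**Figure D4:**
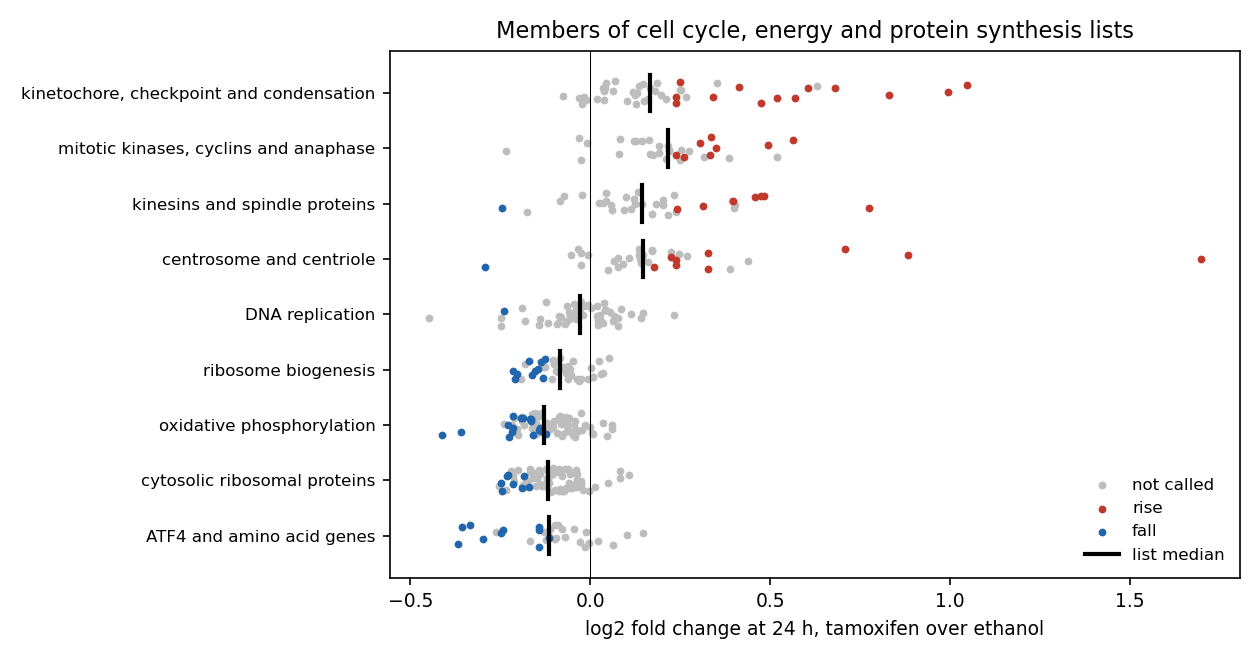
Log2 fold change at 24 h, tamoxifen over ethanol (horizontal), of each member with an adjusted p in 9 gene lists (rows); points are genes that rose (red), fell (blue) or were not called (grey), spread vertically for clarity, and black bars are list medians. The 4 mitotic and centrosome lists have medians of 0.14 to 0.22, DNA replication lies at -0.03, and the other 4 lie at -0.08 to -0.13.

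These lists also differed in transcript length, and fold changes over all genes moved with length. Over 9095 genes whose mean reached 100 counts and whose length was annotated, cut into 10 bins, the shortest bin, of up to 1374 bases, had 2.63% rises and 9.44% falls with a median log2 fold of -0.07. The longest bin, above 6906 bases, had 13.3% rises and 6.81% falls with a median of 0.03. The rank correlation of length and log2 fold across these genes, which share their libraries, was 0.185 at 24 h and 0.141 at 12 h. Median transcript length was 918 bases for oxidative phosphorylation, 942 for ribosomal proteins, 4819 for kinesins and 5189 for centrosome genes. When folds were centred on the running median of genes of similar length, a setting chosen after seeing the data, falls among oxidative phosphorylation genes went from 17 to 2 and among ribosomal proteins from 8 to 0. The kinetochore, mitotic kinase, kinesin, centrosome, ribosome biogenesis and ATF4 counts stayed within 1.5 times of those given. Among other lists that moved, falls went from 6 to 3 for long noncoding and snoRNA host genes. They went from 5 to 3 for NRF2 and glutathione genes and from 5 to 3 for vesicle coat and Golgi genes. Rises of YAP and TEAD genes went from 3 to 1, and rises of G1 cyclin and E2F genes from 1 to 2. Under this setting 27 named genes lost their call, among them Rplp1, Rps2, Atp5k, Ndufb4, Cox8a, Eif5a, Farsb, Orc6, S100a11, Tead1, Fosl2 and Pkhd1. Whether length itself plays a part in these results was not tested.

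**Figure D5:**
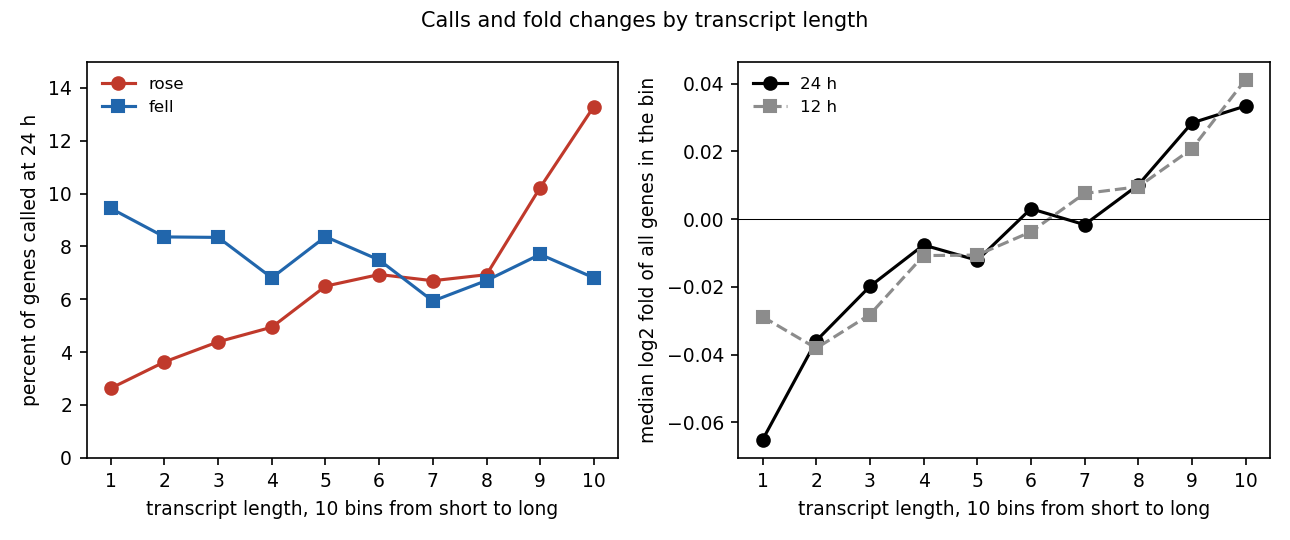
Left, percent of genes that rose (red) or fell (blue) at 24 h in 10 bins of transcript length from short to long, over genes whose mean reached 100 counts; right, the median log2 fold of all genes in each bin at 24 h and at 12 h. Rises go from 2.63% in the shortest bin to 13.3% in the longest, and the medians at both times go from below 0 to above 0.

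Among protein handling genes, those of the lysosome had the most falls. Of the lysosome and V-ATPase genes, 3 of 45 rose and 9 fell. Atp6v0b, a membrane subunit of the proton pump, fell from 1940.5 to 1524 normalised counts, to 78.5% (73.8 to 83.5), Atp6v1h to 88.9% (84.0 to 94.2), Asah1, acid ceramidase, to 78.7% (73.1 to 84.8) and Lamp1, a lysosomal membrane glycoprotein, to 89.0% (84.0 to 94.2). Of the proteasome genes, 2 of 39 rose and 4 fell: the inducible subunit Psmb10 and the activator Psme1 rose 1.49-fold (1.20 to 1.85) and 1.26-fold (1.10 to 1.44), and the regulatory subunit Psmd6 fell to 87.7% (82.3 to 93.4). Of the chaperone and unfolded protein genes of the endoplasmic reticulum, 4 of 28 rose and 2 fell, with the sensor Ern1 at 1.30-fold (1.20 to 1.40), Xbp1 at 1.11-fold (1.04 to 1.19) and Herpud1, of ER-associated degradation, at 80.9% (73.1 to 89.5). Of the heat shock and chaperonin genes, 1 of 29 rose and 2 fell, with Fkbp5, a co-chaperone of steroid receptors, at 70.7% (66.5 to 75.2). Of the vesicle coat and Golgi genes, 4 of 44 rose and 5 fell, with Cltb, a clathrin light chain, at 70.2% (64.2 to 76.9), and of the autophagy genes, 3 of 34 rose and 2 fell, with Rb1cc1, an early autophagy scaffold, at 1.38-fold (1.22 to 1.55).

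In carbon metabolism, of the glycolysis, pentose phosphate and hypoxia genes, 3 of 33 rose and 8 fell. Pgk1, a glycolytic kinase, fell from 3664 to 2905 normalised counts, to 79.3% (74.5 to 84.4), Hif1a, the hypoxia factor, to 88.2% (83.7 to 93.1) and Ndrg1, a hypoxia-induced gene, to 83.1% (77.9 to 88.7), whereas G6pdx, the entry enzyme of the pentose phosphate path, rose 1.39-fold (1.21 to 1.59). Of the NRF2 and glutathione genes, 4 of 33 rose and 5 fell: Cat, catalase, rose 1.18-fold (1.11 to 1.25) and Gstm1 1.31-fold (1.20 to 1.44), and Prdx1, a peroxiredoxin, fell to 79.9% (73.8 to 86.5).

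In lipid metabolism, of the cholesterol and fatty acid genes, 5 of 36 rose and 2 fell. The fatty acid desaturases Fads1 and Fads2 rose 1.15-fold (1.08 to 1.23) and 1.30-fold (1.15 to 1.47) beside Scd2, and Me1, malic enzyme, which supplies NADPH, fell from 5833 to 4658 normalised counts, to 79.9% (75.8 to 84.2). Of the retinoid genes, 2 of 16 rose and 2 fell: Aldh1a1, which forms retinoic acid, fell from 321 to 143 normalised counts, to 44.4% (36.8 to 53.7), beside Rdh10, and the carrier Rbp4 rose 1.12-fold (1.06 to 1.18). Of the phospholipid and sphingolipid enzymes, 1 of 33 rose and 5 fell, with Sphk1, a sphingosine kinase, at 52.9% (44.1 to 63.4) and Lpin2, a phosphatidate phosphatase, at 73.2% (66.7 to 80.3). Of 6 estrogen receptor genes and targets with an adjusted p, Xbp1 rose and 5 did not pass the test, in a list examined because 4-OH tamoxifen binds estrogen receptors.

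The 24 h response held most of the genes called at 12 h, where 123 genes, or 0.943%, were called. Of the 95 falls at 12 h 82.1% were also falls at 24 h, and these were 10.3% of the 24 h falls. Of the 28 rises at 12 h 64.3% were also rises at 24 h, and these were 2.62% of the 24 h rises. The libraries and controls of the times are separate. The 12 h comparison was less precise, with a median standard error of 0.16 in genes of at least 100 counts against 0.07 at 24 h, so more calls at 24 h do not show by themselves a larger response.

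Without regard to calls at 12 h, the fold had the same sign there for 91.3% of the 24 h falls and 88.9% of the 24 h rises. The same share among genes not called at 24 h was not counted, so these shares have no background beside them. For falls of at least 2-fold the median log2 fold was -1.39 at 24 h and -1.01 at 12 h, and for rises of at least 2-fold it was 1.24 and 0.46; these genes were picked at 24 h, so their folds there are the selected ones. A test of the difference of folds over 14981 genes called 2 (0.0134%), and both were more negative at 24 h. Serpine2 had a log2 fold of -0.39 ± 0.14 (standard error) at 12 h and -1.27 ± 0.09 at 24 h in the authors' deposited table. Msln had -1.05 ± 0.11 and -1.69 ± 0.06 in the same table. Serpine2 thus fell deeper at the later time, having not passed the test at 12 h, and no mitotic gene was called as different between the times. Among them, Cenpf had a 12 h log2 fold of 0.19 ± 0.23 (standard error) and Mki67 one of 0.05 ± 0.25 in the authors' deposited table.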

How the data were processed

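Total RNA was extracted with Trizol and made into libraries with TruSeq RNA v2 reagents, per the labels' protocols, and read single-end per the design text. DESeq2 and HISAT2, and the mouse build mm10, are named without versions per the submitters' processing notes. How reads were counted, with which annotation, and which model formula was fitted is not given in the sources used here. In the deposit, the authors placed 1 table per time, each normalised separately. Per the file headers it gives a signal per gene, the mean of the normalised counts over the libraries of that time. It also gives the log2 fold change and its standard error, the Wald score and the p-value with its adjusted value, all from the authors' comparison. The numerator of the 24 h fold was not given in the sources used here, and folds were read as tamoxifen over ethanol, under which the targeted gene Klf5 is lower with tamoxifen. No column of another sample was used, and 0 were present.

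All else was computed in Python 3.11.15 (packages pandas 2.3.3, numpy 2.4.6, scipy 1.17.1; figures in matplotlib 3.10.9). Group levels were solved from the mean and the fold for 4 libraries per group, which assumes that the fitted fold equals the ratio of group means. Intervals of 95% are 1.96 standard errors wide on each side. A gene counted as called when the authors' adjusted p (Wald test, Benjamini-Hochberg) was below 0.05. The planned test on counts did not apply, since no counts per library were in the tables, and its stated fallback was used. To compare the times, the 12 h log2 fold was subtracted from the 24 h one and divided by the combined standard error, and the two-sided p was adjusted by Benjamini-Hochberg over 14981 genes. A standard error was called large above 1.5 times the median of 201 genes nearest in mean.

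The scripts were tested on simulated data. Noise was drawn from a normal distribution with the reported standard errors, and 50 genes carried a change of each size. Of simulated log2 changes of 0.25, 0.5, 1 and 2 among 11648 genes, 32%, 86%, 92% and 100% were called at 24 h. Here 11448 genes carried no change, whereas 1447 were called in the data, so the shares hold for the simulated setting only. For the difference between times, over 14981 genes, the shares were 4%, 18%, 64% and 76%.

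The comparison, the 67 gene lists and the tests were chosen with earlier results of these data known. Lists are described by counts and medians with no test of a list. Named genes are Klf5; the 20 rises and 20 falls with the largest Wald scores; ranks 1 to 20 by fold in each direction at a mean of at least 50; 5 per direction below it; the 10 largest gains and losses in counts; and, per list, the 5 called members of smallest p (or fewer). Predicted genes (Gm, Rik and -ps symbols) were not named, and some genes within the rule are not printed. Positions come from GENCODE on GRCm38, where 317 of 319 named genes were found, and promoter windows from RefSeq on GRCm38.p6; Klf5, Msln and Fn1 had no window in the table used. Intervals cover only what the standard errors hold.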

Additional observations from a re-analysis of the deposited data

Results flagged for a closer look

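The log2 fold of 2 genes differed between the times by the test of the difference itself. For Serpine2 the 24 h fold was lower than the 12 h fold by a difference of -0.87 (standard error 0.17, adjusted p 0.0035 over 14981 genes). For Msln the difference was -0.64 (standard error 0.13, adjusted p 0.0049). Relative to genes of like mean, the standard error at 24 h was 1.82 times as large for Serpine2 and 1.20 times for Msln. Simulated differences of 1 on the log2 scale, with noise drawn from the reported standard errors, were called by this test for 64% of the 50 genes that carried one.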

How the results depend on the processing

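No paired analysis was possible because the tables hold no value per library, and for the same reason no library could be left out in turn. No named gene changed direction under the alternatives run. At an adjusted p under 0.01 there were 384 rises and 470 falls, against 687 and 760. Changes of at least 2-fold depended on low means: at a mean of at least 100 counts there were 5 such rises and 25 such falls, against 27 and 67. Without genes of large standard error, 1 gene in place of 2 was more negative at 24 h than at 12 h, Msln, since Serpine2 is left out by that setting. Adjusting over all genes with a p gave 618 rises and 689 falls, centring on the median gave 730 and 699, so that rises then outnumbered falls, and centring on genes of similar transcript length, chosen after seeing the data, gave 654 and 660. Of named genes, Cldn4 (adjusted p 0.0542) and Ly6c1 (0.0503) lost their calls when the authors' p-values were adjusted over all genes, 61 lost them at 0.01 and 27 with length centring. List counts moved by over 1.5 times in 20 cases without genes of large standard error, 16 with length centring, 9 at a mean of at least 100, 3 when adjusted over all genes and 2 when centred on the median. Among these, falls of matricellular genes went from 5 to 2, of proteasome genes from 4 to 1 and of Notch genes from 3 to 1, and rises in the glycolysis list from 3 to 0. Depth limits small changes in genes of low mean, and the cause of these moves was not tested.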

Other observations

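Called genes were found on all chromosomes with tested genes, with shares from 7.87% on chromosome 4 to 16.4% on chromosome 3. Of protein-coding genes with an adjusted p, 12.6% were called, and of the 84 annotated as lincRNA 8.33%. None of 44 snoRNA genes and none of 13 miRNA genes was called, in libraries whose kit is not made for such short RNAs.

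Transcript GC content was related to the folds less than length at 24 h and more than length at 12 h, where the rank correlation with length was 0.141. Over genes whose mean reached 100 counts, the rank correlation of GC and log2 fold was -0.06 at 24 h and -0.17 at 12 h, across genes that share their libraries. The lowest-GC bin had 9.45% rises and 5.82% falls.

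Large standard errors were more common among rises than among falls. A standard error over 2 times that of genes of similar mean was found for 2.77% of the rises, 1.45% of the falls and 1.30% of all genes with an adjusted p. Cep290, Cenpe, Gc and Lamb3 are among these genes.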
